A study of Saccharomyces cerevisiae with 10 samples.

Results

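The right arm of yeast chromosome XII beyond the ribosomal DNA was examined through every probe of chromosome XII whose deposited position lies above 490000. This rule kept 3367 of 53664 probes, which read both alleles at 853 of the 13461 single-nucleotide polymorphisms (SNPs) on the array, or 6.34% of them. The first SNP of the stretch lay at position 490725 and the last at 1058884, a span of 568 kb with a median spacing of 300.5 bp. The last SNP on the other side of the repeats lay at 447537, so that 43.2 kb around the ribosomal DNA held no SNP. The 391 SNPs of chromosome XII left of the repeats served for comparison.

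The series asked how RNase H2 cleavage at ribonucleotides embedded in DNA relates to genome instability in Saccharomyces cerevisiae. Genomic DNA of 10 diploid isolates was measured, 1 two-colour SNP array per isolate, with the isolate's DNA in Cy5 and DNA of the control diploid JSC24 in Cy3. The groups were 2 purified isolates of HK10 (A and B), 2 purified isolates of HK12 (A and B), 2 zygotes of the cross of MD893-2 with LSY3454-2, and 4 zygotes of the cross of MD893-1 with LSY3454-2. All isolates had the strain background W303-1A by YJM789 and were grown at 30 °C in rich YPD medium with no treatment named. The labels give no genotype for the HK isolates or for the parents of the crosses. They call the zygotes independent. They do not say whether the pair of isolates under 1 HK name came from separate cultures, so p-values measure the spread between these isolates only.

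The ribosomal DNA is a long tandem array of near-identical units that carry the genes of the ribosomal RNAs, and recombination between units can change their number. A diploid made from a pair of diverged strains carries an allele of each at every SNP. When recombination or breakage on one homologue leaves all markers out to the chromosome end with the allele of a single parent, the cell has lost heterozygosity (LOH) there. RNase H2 is the enzyme that nicks DNA beside a ribonucleotide left in by a DNA polymerase, which starts its removal.

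In the RefSeq gene order of the reference strain (assembly R64, used for order only, since the deposited table names no build), 311 genes follow the last ribosomal RNA gene of chromosome XII. Of these, 291 code for proteins, 15 for tRNAs and 5 for small nucleolar RNAs. The first named genes on that side are RRT15, MAS1, which encodes a subunit of the mitochondrial processing peptidase, and SHH4. The last are YRF1-4 and YRF1-5, helicase genes of the telomeric Y' elements. On the other side of the repeats stand ACS2, an acetyl-CoA synthetase gene, and RNH203, which encodes a subunit of RNase H2 itself.

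The array carried 4 probes, S and Y alleles on both strands, at 801 of the 853 SNPs, 3 probes at 50 and 2 probes at 2. No label says what S and Y stand for, and the letters are kept here. For each SNP, d was the mean log2 ratio of its S probes minus that of its Y probes, centred on the array's median, so that d was near 0 where both alleles were held, clearly positive where the S allele alone was held and clearly negative where the Y allele alone was held. At least 1 probe of each allele gave a value at 809 and 811 SNPs in HK10 A and B, at 807 and 797 in HK12 A and B, at 777 and 794 in zygotes of MD893-2 and at 842, 849, 831 and 826 in zygotes of MD893-1. The largest SNP-free intervals, of 12.5, 12.1 and 11.9 kb, began at positions 590497, 645790 and 665742, and events shorter than these could lie in them unseen.

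The stretch had lost heterozygosity in 3 of the 4 HK isolates and in none of the 6 zygotes. In HK10 A and HK10 B the Y allele alone was held at all measured SNPs (809 of 809 and 811 of 811). In HK12 B the S allele alone was held at 659 of 797 SNPs, 82.7%, and both alleles at the other 138. HK12 A was called heterozygous at all 807. Both alleles were also held at every measured SNP of the MD893-2 and MD893-1 zygotes. States were called with a hidden Markov model on d that required 5 SNPs for a tract. These counts are therefore of called states and not of each SNP's own d.

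The median d over the stretch was -3.36 in HK10 A and -3.40 in HK10 B. HK12 A had a median of -0.05, whereas HK12 B had 2.90. The MD893-2 zygotes had medians of -0.02 and -0.03, and those of MD893-1 had 0.01, 0.01, -0.02 and 0.00. The HK10 isolates thus lay on the side of the Y allele and HK12 B on the side of the S allele, far outside the noise of d at heterozygous SNPs. That noise, a robust SD from the median absolute deviation, was 0.164 in HK12 A, 0.182 in the heterozygous stretch of HK12 B, 0.178 and 0.281 for zygotes of MD893-2 and 0.140 to 0.191 for zygotes of MD893-1.

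**Figure D1:**
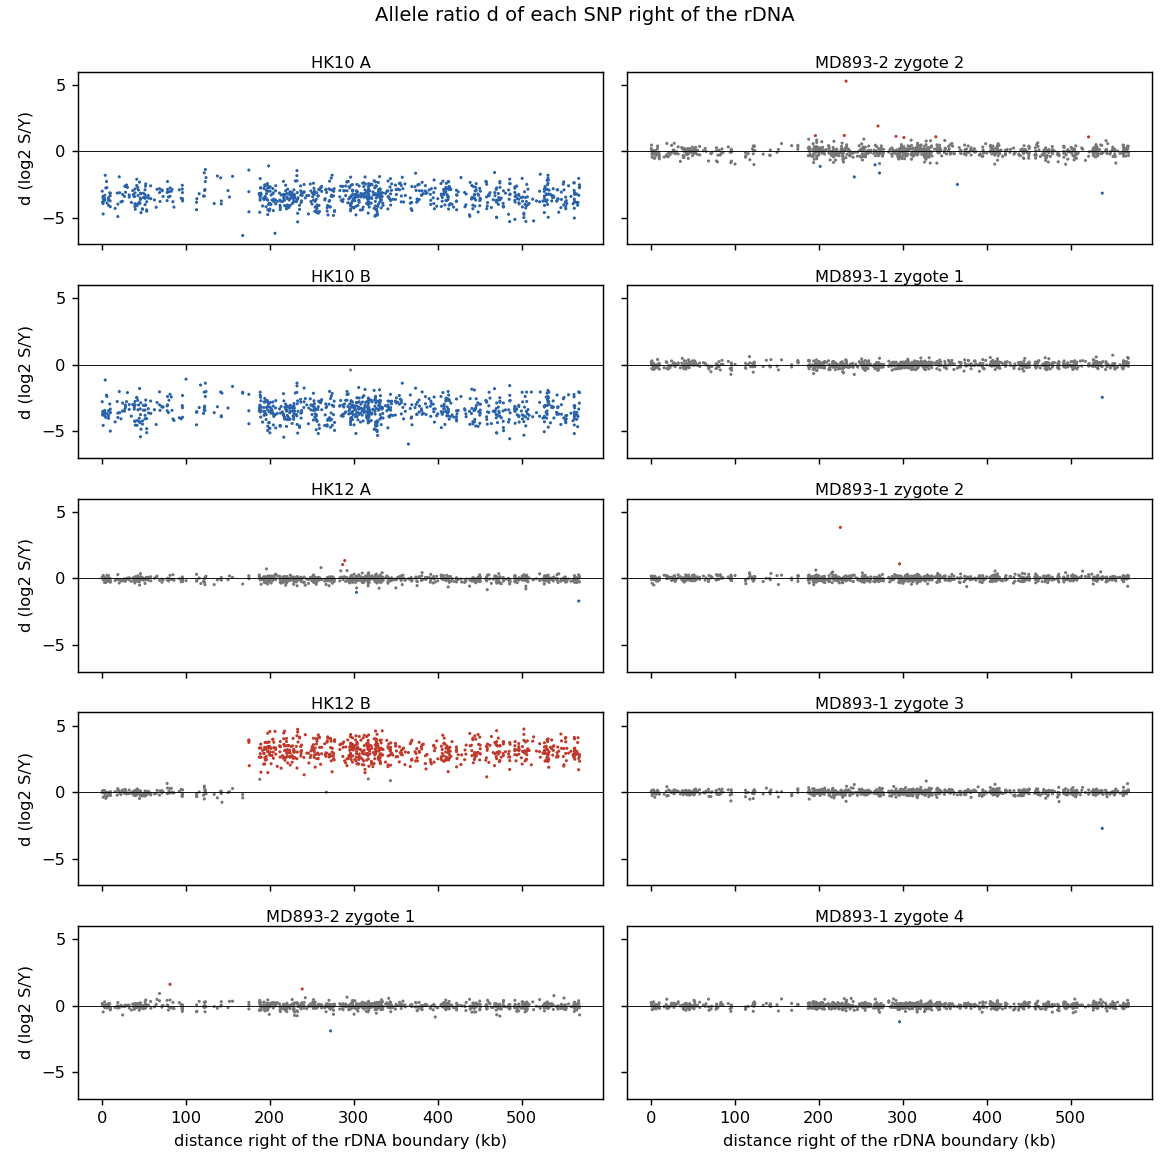
Allele ratio d (log2 S over Y, vertical axis) of every measured SNP against its distance right of position 490000 (kb, horizontal axis), 1 panel per isolate, with blue points for d under -1, red for d over 1 and grey between. HK10 A and B are blue along the whole stretch, HK12 B turns from grey to red between 168 and 175 kb, and HK12 A and the 6 zygotes stay near 0.

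Taken over isolates, the mean share of SNPs in LOH was 70.7% ± 47.8 in the HK isolates and 0% ± 0 in the zygotes (SD, n = 4 and 6). An exact permutation test over isolates, two-sided, returned p = 0.0667, with HK12 A at the same share as the zygotes. Leaving out HK10 A, HK10 B or HK12 B gave an exact p of 0.167 each. Leaving out HK12 A gave a mean of 94.2% and an exact p of 0.0238, a value fixed by dropping the isolate without LOH and so no support for a difference. With 1 value per HK name the exact p was 0.0714, and no split of 2 against 6 can give less.

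In HK10 the LOH did not begin at the ribosomal DNA. The Y-homozygous tract of HK10 A started at position 342522, left of the repeats, and ran to the last SNP at 1058884 over 859 SNPs and 716 kb. That of HK10 B started at 343223 and ran over 862 SNPs and 716 kb, with the preceding SNP at 342522 not measured there. Left of these starts, at 340994, both isolates were homozygous for the opposite allele, with d of 3.58 in HK10 A and 3.69 in HK10 B. The change of allele was therefore placed within 1.53 kb in HK10 A and 2.23 kb in HK10 B, and no state change was called right of it in either isolate.

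The SNPs next to the repeats showed the same allele on either side in HK10. Over the 10 nearest SNPs right of the ribosomal DNA the mean d was -3.69 in HK10 A and -3.60 in HK10 B, against -3.22 and -3.17 over the 10 nearest SNPs left of it. In HK12 A and B these right-hand means were 0.07 and -0.01, and those of the zygotes lay between -0.00 and 0.05. The outermost SNPs told the isolates apart in the same way. Over the last 10 SNPs before the chromosome end the mean d was -3.21 and -3.34 in HK10 A and B, -0.17 and 2.87 in HK12 A and B, -0.07 and 0.06 in zygotes of MD893-2 and 0.18, 0.00, 0.10 and 0.07 in zygotes of MD893-1.

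HK12 B carried the single state change called within the stretch. Its last heterozygous SNP lay at position 657904, with d of -0.43, and its first S-homozygous SNP at 665226, with d of 3.92. The 7.32 kb between them held no SNP, and the change lay 168 to 175 kb right of position 490000. The next measured SNPs on the right, at 665227 and 665333, had d of 3.74 and 3.88 in HK12 B. The SNPs before it, at 640474, 642140, 645790 and 657850, had d of -0.03, 0.03, 0.27 and -0.18. The tract ran from there to the last SNP over 659 SNPs and 394 kb. At the same SNPs, 665226, 665227 and 665333, HK12 A had d of -0.02, 0.20 and 0.03, so that isolates A and B of HK12 differed in state from this point on.

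Left of that point the pair of HK12 isolates differed little. Over the 131 SNPs measured in both there, B and A differed in d by 0.00 on average with an SD of 0.21, close to the noise of a single array. To the right of it d was higher in HK12 B at 648 of 648 SNPs measured in both, by 3.14 ± 0.66 (SD over SNPs). The point and the states were called from d itself, so this direction followed from the calls and only its size is a description. The HK10 isolates held the same allele throughout, and their d differed by 0.03 on average with an SD of 0.46 over 793 SNPs, with no identical values, so that the arrays were separate measurements. SNPs of 1 array are not independent replicates, and these SDs describe the arrays.

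SNP by SNP, d was compared between groups with limma over the 11723 SNPs measured on all 10 arrays, 733 of them right of the ribosomal DNA. In HK10 minus the 6 zygotes, 719 of these 733 SNPs were lower at a Benjamini-Hochberg adjusted p under 0.05 and none was higher, where 14.3% of all SNPs tested were called in either direction and 12.2% were lower. The median difference over the 733 SNPs was -3.41, with single SNPs between -5.37 and -1.48, while the median over the rest of the genome was 0.01. Left of the point where HK12 B changed state all 122 SNPs were called, and right of it 597 of 611, since the shared residual spread there includes the difference between HK12 A and HK12 B. The median standard error was 0.11 left of that point and 0.65 right of it. The count was lower without HK10 A or without HK10 B, fits that leave a single HK10 isolate and have no share over all SNPs.

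The same fit called 1 of the 733 SNPs in HK12 minus the zygotes, a higher one, against 7.54% of all SNPs called and 6.66% higher, although 331 had an unadjusted p under 0.05. The count rose most without HK12 A. That fit leaves HK12 B alone in its group and has no share over all SNPs, so no count is read from it. The mean of one heterozygous and one S-homozygous isolate is no measure of either. HK12 A and B were therefore also fitted as groups of their own, a fit added after the data were seen, in which a lone isolate is assumed to vary like the others. In that fit 610 of the 733 SNPs were higher in HK12 B than in the zygotes, where 9.74% of all SNPs were called and 8.9% were higher. All 610 lay right of the state change, which was itself placed from d of HK12 B, so their position is a description. HK12 A differed from the zygotes at 1 of 733 SNPs, against 3.93% of all SNPs called and 3.28% higher, with an unadjusted p under 0.05 at 16 of 733 SNPs and at 1311 of 10990 in the rest of the genome. HK10 minus the zygotes was lower at 732 of 733 SNPs in that fit, where 14.3% of all SNPs were called and 12.2% were lower.

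The SNP called in HK12 A lay at position 776875, where d was 1.05 in HK12 A and between -0.30 and -0.04 in the zygotes. The difference was 1.21 with a standard error of 0.11 (limma, adjusted p = 0.00016, HK12 A as a group of its own). A single probe was low in HK12 A. The forward Y probe read 0.121 in HK12 A and 0.507 to 1.12 in the 5 zygotes with a value, while the reverse Y probe read 1.21 in HK12 A and 1.15 to 1.61 in the zygotes. The SNP was named after its values were seen.

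The levels of the single alleles show how the arrays read a lost and a retained allele. In HK10 A the S allele lay 2.89 ± 0.68 log2 units below the mean of the zygotes at the same SNPs (SD over 816 SNPs), a remaining 0.135 of their level, and the Y allele lay 0.48 ± 0.19 above it (844 SNPs). In HK10 B the S allele was at 0.128 of the zygote level (819 SNPs) and the Y allele lay 0.42 ± 0.24 above it (840 SNPs). In HK12 B, right of the state change, the Y allele was at 0.155 of the zygote level (660 SNPs) and the S allele lay 0.43 ± 0.21 above it (703 SNPs). In HK12 A both alleles lay 0.20 below the zygotes (833 S and 822 Y SNPs), and left of the change both alleles of HK12 B lay 0.21 below them.

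Set against HK12 A, which held both alleles, the retained allele was higher by about the same factor in all 3 LOH isolates. The Y allele was 1.61-fold higher in HK10 A and 1.55-fold higher in HK10 B, and the S allele was 1.56-fold higher in HK12 B right of the change. The signal left at the lost allele was 0.154 and 0.146 of the HK12 A level for S in HK10 A and B, and 0.177 for Y in HK12 B. These are means of log2 values over SNPs of single arrays and carry no test.

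**Figure D2:**
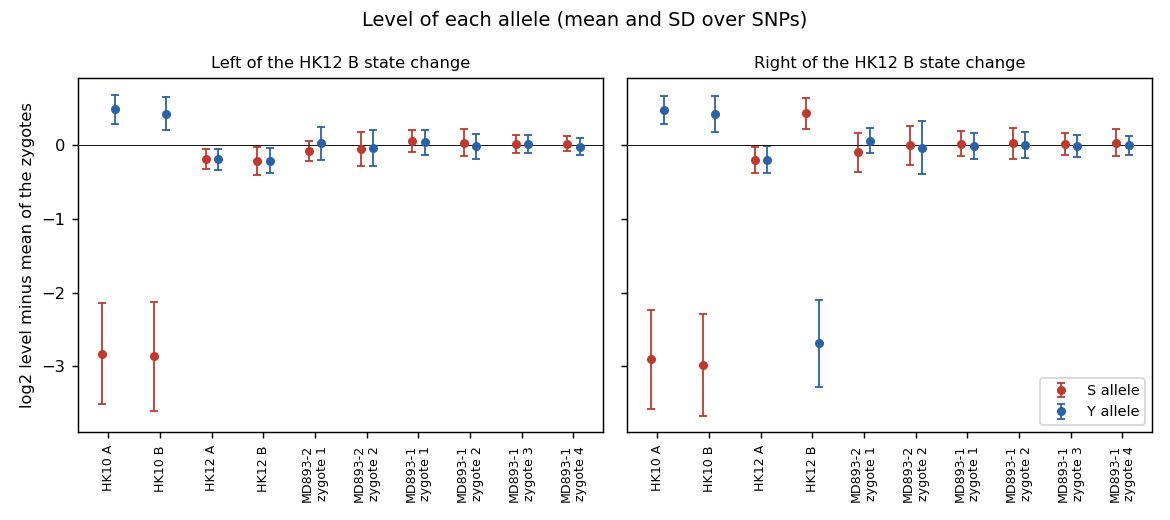
Mean log2 level of the S allele (red) and of the Y allele (blue) minus the mean of the 6 zygotes at the same SNPs (vertical axis) in each isolate (horizontal axis), left and right of the point where HK12 B changed state, with bars for the SD over SNPs. In HK10 the S allele is low and the Y allele raised in both panels, in HK12 B the Y allele is low on the right alone, and both alleles of HK12 A lie 0.20 below the zygotes over the whole stretch.

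The 631 SNPs called in LOH in HK10 A, HK10 B and HK12 B hold both homozygous states and show how far the array separates them. The difference in d, HK12 B minus the mean of HK10 A and B, had a median of 6.46, with 5% of SNPs under 4.71 and 5% over 8.43. The largest was 9.74 at position 723319, where d was 4.52 in HK12 B and -5.31 and -5.13 in HK10 A and B. The next were 9.65 at 960115 and 9.31 at 992585. The smallest lay at 833747, where d was 0.86 in HK12 B and -2.06 and -2.22 in HK10 A and B, followed by 3.22 at 722472 and 3.35 at 803534. Only 11 of the 631 SNPs lay under 4, and the median was 6.50 at the 596 SNPs with 4 probes and 5.65 at the 35 with fewer.

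The spread over SNPs was shared between arrays. Across the 631 SNPs, d of HK10 A and HK10 B had a Pearson r of 0.815, whereas d of HK12 B, of the other allele, had r of -0.508 with HK10 A and -0.541 with HK10 B. A SNP with a more negative d in HK10 thus tended to have a more positive d in HK12 B. The values share the probes and the control DNA, and SNPs are not independent replicates.

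**Figure D3:**
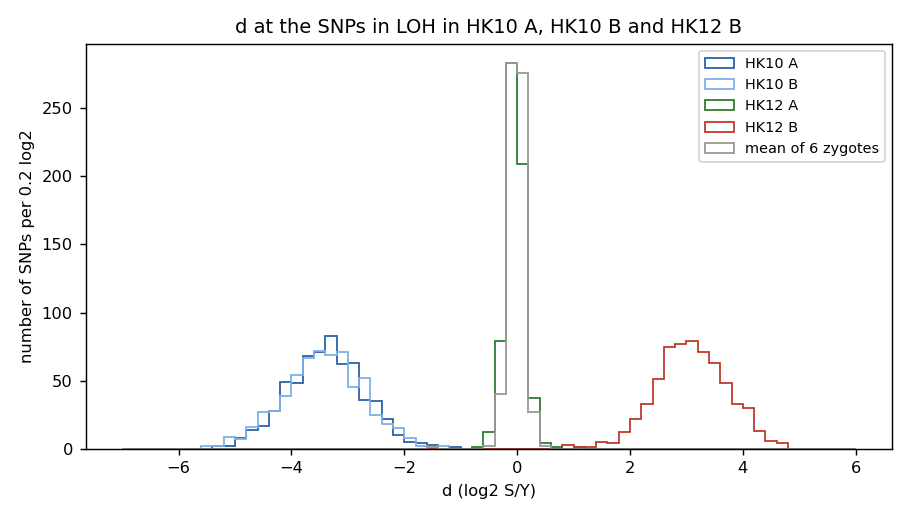
Number of SNPs (vertical axis) per 0.2 log2 of d (horizontal axis) at the 631 SNPs in LOH in HK10 A, HK10 B and HK12 B, as outlines for these isolates, HK12 A and the mean of the 6 zygotes. The HK10 outlines lie together around -3.4, that of HK12 B around 3.1, and those of HK12 A and the zygotes close to 0.

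Few SNPs stood against the state around them. In HK10 A no SNP of the tract had an absolute d under 1, and in HK10 B there was 1, at 786322 with d of -0.39. In HK12 B there were 4, at 678184, 757465, 807332 and 833747, with d of 0.96, 0.00, 0.99 and 0.86. The SNP at 757465 had no d in HK10 A, HK10 B or HK12 A, and the one at 786322 had a d in 2 of the 6 zygotes, so these probes were often without a value. Over the whole stretch, an absolute d over 1 was found at 100% of SNPs in HK10 A, 99.9% in HK10 B and 82.2% in HK12 B, against 0.496% in HK12 A and 0.119% to 1.76% in the zygotes. In the rest of the genome the share was 11.9% and 7.97% for HK10 A and B, 8.14% for HK12 B and 8.49% for HK12 A, so that HK12 A had fewer such SNPs here than elsewhere.

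Total signal, the log2 of the mean of the linear S and Y ratios of a SNP centred on the array's heterozygous SNPs, was lower in all 4 HK isolates than in any zygote. HK10 A averaged -0.36 and HK10 B -0.42, HK12 A -0.20 and HK12 B -0.37. The zygotes had -0.01 and -0.01 (MD893-2) and 0.01 in each of the 4 of MD893-1. The groups did not overlap, and the difference of the means was -0.34 (-0.34 ± 0.10 in HK isolates and 0.00 ± 0.01 in zygotes, SD, n = 4 and 6). The exact two-sided permutation p was 0.00952, the smallest that the 210 splits allow, and with 1 value per HK name it was 0.0714. The level is relative to the heterozygous SNPs of the same array, and no absolute copy number was read from it.

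SNPs in LOH and heterozygous SNPs are not on an equal footing in this measure, since the retained allele read 1.34 to 1.39 times the zygote level (1.55 to 1.61 times that of HK12 A) while the lost allele kept part of its signal. Over heterozygous SNPs alone, HK12 A had -0.20 and HK12 B -0.23, against -0.01 to 0.01 in the zygotes, a difference of -0.22 with an exact permutation p of 0.0714, the smallest for 2 against 6. The lower signal was not limited to the stretch right of the repeats. Left of the ribosomal DNA, total signal was -0.25 and -0.25 in HK10 A and B, -0.20 and -0.21 in HK12 A and B, and -0.03 to 0.01 in the zygotes. Over heterozygous SNPs of that side, HK10 A and B had -0.21 and -0.20, and HK12 A and B -0.20 and -0.20.

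Right minus left of the ribosomal DNA, total signal was -0.11 and -0.17 in HK10 A and B, -0.00 and -0.16 in HK12 A and B, 0.02 and 0.01 in zygotes of MD893-2 and -0.00 to 0.01 in zygotes of MD893-1. The mean difference between HK isolates and zygotes was -0.12 (exact permutation, two-sided, p = 0.019), and with 1 value per HK name its p was 0.0714. In HK10 the left side was itself partly in LOH, so the HK10 values set LOH against a mix of LOH and heterozygous SNPs. The isolate with no LOH on the right, HK12 A, fell within the range of the zygotes. Over heterozygous SNPs HK12 A had -0.00 and HK12 B -0.02, and the difference from the zygotes of -0.02 had an exact p of 0.143.

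The slope of total signal on distance from the repeats showed no detected difference between HK isolates and zygotes beyond the spread between isolates. A change with distance within an isolate was not tested. In HK12 B total signal averaged -0.23 left of the state change and -0.40 right of it. The slope of total signal per 100 kb was 0.00248 and 0.00353 in HK10 A and B, 0.00808 for HK12 A and -0.0297 for HK12 B. For the zygotes it was 0.0079 and 0.0146 in MD893-2 and -0.00457 to 0.00732 in MD893-1. HK isolates minus zygotes gave -0.00914 (exact two-sided permutation p = 0.381), and -0.000535 without HK12 B. In 12 windows of 50 kb the mean signal stayed between -0.41 and -0.32 in HK10 A, between -0.49 and -0.35 in HK10 B and between -0.24 and -0.15 in HK12 A. HK12 B ranged from -0.44 to -0.22, with its higher windows left of the state change. The zygote windows lay between -0.10 and 0.06, so that no HK window reached the lowest zygote window.

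**Figure D4:**
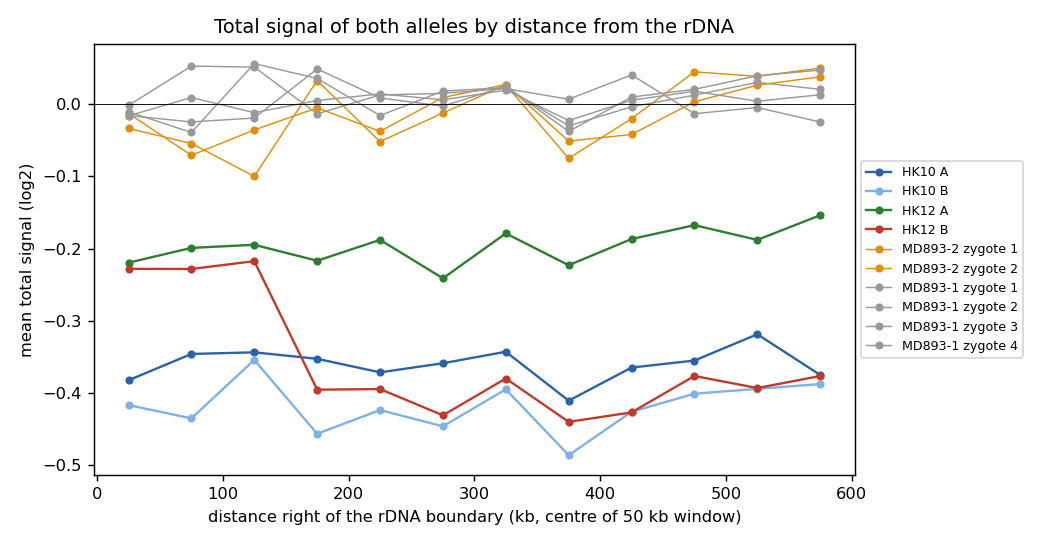
Mean total signal of both alleles (log2, vertical axis) in 12 windows of 50 kb by distance right of position 490000 (kb, horizontal axis), 1 line per isolate. The HK lines lie below all zygote lines along the whole stretch, and that of HK12 B steps down where its state changes.

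No LOH tract was called in the stretch in the zygotes of either cross. An exact test of 2 against 4 zygotes cannot reach 0.05, so it could show no difference between the crosses. LOH was 0% in the 2 MD893-2 and the 4 MD893-1 zygotes (exact permutation p = 1). Total signal averaged -0.01 ± 0.001 in zygotes of MD893-2 and 0.01 ± 0.003 in zygotes of MD893-1 (SD, n = 2 and 4). The crosses did not overlap in total signal, and the difference of -0.02 had p = 0.133 (exact permutation, two-sided), the smallest that 15 splits allow. In d, limma called 0 of 733 SNPs between the crosses, where 0.00853% of all SNPs were called, and 12 of 733 had an unadjusted p under 0.05, as did 1281 of 10990 in the rest of the genome. The residual spread of that fit includes the difference between HK12 A and HK12 B, so a cross difference could hardly be called in the stretch. Its median standard error was 0.66 there and 0.11 in the rest of the genome. With HK12 A and B as groups of their own the count was again 0, with 79 of 733 and 1362 of 10990 at an unadjusted p under 0.05. A fit of zygotes 1 and 2 of each cross with the zygote number as a block called 2 of 765 SNPs, 762481 (limma, adjusted p = 0.000267) and 760642 (limma, adjusted p = 0.00899), and the same arrays without the block gave 0 of 765. No share over all SNPs was taken for either of these fits, so their counts are not read as a result. Whether the zygote numbers pair the samples cannot be told from these arrays. The 0% refers to tracts of 5 or more measured SNPs.

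Single SNPs apart from 0 were rare in the zygotes. An absolute d over 1 occurred at 19 SNPs in at least 1 zygote, at 2 SNPs in at least 2 and at none in 4 or more. Of such values the most, 14, came from MD893-2 zygote 2, the array with the highest noise of d.

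One SNP, at position 1027553, stood apart in 3 zygotes. Its d was -3.15 in MD893-2 zygote 2, -2.44 in MD893-1 zygote 1 and -2.73 in MD893-1 zygote 3, against -0.28 in MD893-2 zygote 1 and -0.03 and -0.07 in MD893-1 zygotes 2 and 4. These 3 values are close to those of HK10 A and B, -3.35 and -3.17, while HK12 A had -0.18 and HK12 B 3.14. Both strands of the S allele were low. In the 3 zygotes the forward and reverse S probes read 0.0946 and 0.112, 0.140 and 0.285, and 0.103 and 0.234, whereas in the other 3 zygotes they read between 0.786 and 1.28. The Y probes read 0.812 to 1.22 in the 3 zygotes and 0.920 to 1.17 in the other 3, against 1.34 and 1.38 in HK10 A.

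The SNPs beside it held both alleles in every zygote. The neighbour 119 bp to the left had d between -0.16 and 0.11 in the zygotes, and the neighbour 778 bp to the right had d between -0.18 and 0.76. Any tract there would span a single SNP of the array, under the minimum of 5. Among 11939 SNPs of the genome measured in all 6 zygotes, 762 of them in this stretch, no other SNP had an absolute d over 2 in exactly these 3 zygotes. An absolute d over 2 occurred in 3 zygotes at 2 SNPs and in all 6 at 5. The SNP was chosen after its values were seen, it is no tested result, and in the fit with HK12 A and B apart it was the 1 SNP of 733 not called in HK10.

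**Figure D5:**
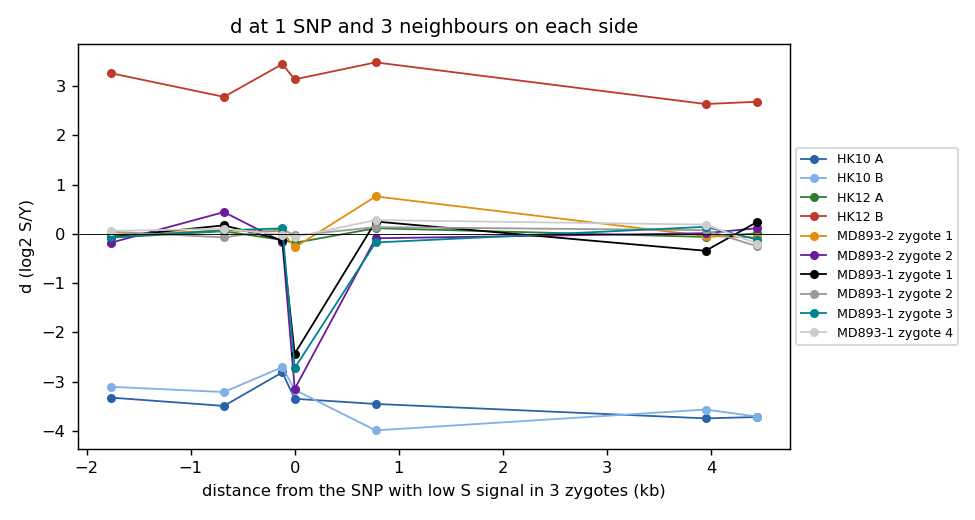
Allele ratio d (log2 S over Y, vertical axis) at the SNP at 1027553 and its 3 neighbours on each side, by distance from it (kb, horizontal axis), 1 line per isolate. MD893-2 zygote 2 and MD893-1 zygotes 1 and 3 dip to between -3.15 and -2.44 at the centre, and lie near 0 at every neighbour.

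In HK10 A, HK10 B and HK12 B, probes of the lost allele lacked a value more often in the stretch than elsewhere on the same array. Among S probes of the stretch, 9.94% and 10.3% had no value in HK10 A and B, against 3.84% and 4.15% in the rest of the genome of these arrays. Among Y probes of the stretch, 12.3% had no value in HK12 B, against 8.45% in the rest of its genome. In HK12 A the S probes of the stretch lacked 5.54% and those elsewhere 5.08%, and its Y probes 8.06% and 9.95%. Similar shares occurred without LOH. In the MD893-2 zygotes 9.52% and 8.45% of S probes and 11.1% and 10.8% of Y probes of the stretch had no value. The MD893-1 zygotes lacked 0.95% to 3.15% of S probes and 0.77% to 4.39% of Y probes there. SNPs with no value for an allele have no d, and the part of this in the values above was not tested.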

How the data were processed

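The deposited table holds 1 linear ratio per probe and array, sample (Cy5) over control JSC24 (Cy3) per the labels, and each array's deposited ratios average 1. Genome build, background correction and any filter on spots were not given in the sources used here, so no gene was placed on positions. Columns were matched by strain names, which read MD891 and MD892 where titles read MD893-1 and MD893-2 (titles were followed).

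The log2 ratios were median-centred per array, without loess or quantile steps. The hidden Markov model had heterozygous, S- and Y-homozygous states (Student t with 4 degrees of freedom, centres 0, 3 and -3, scale 0.8 for homozygous states, noise of at least 0.1 for the heterozygous one) and a change probability of 0.0001 per SNP. Total signal was centred on each array's heterozygous SNPs over all chromosomes, and "left" means chromosome XII up to position 450000. Single values were tested over isolates by exact permutation, two-sided, and d with limma 3.58.1 in R 4.3.3 (Benjamini-Hochberg, 0.05), with groups HK10, HK12, MD893-2 and MD893-1 and the zygotes as the mean of both crosses. Other steps used Python 3.11.15 with numpy 2.4.6, pandas 2.3.3 and scipy 1.17.1, and figures matplotlib 3.10.9.

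Text names each state change with its flanking SNPs, the 3 SNPs of largest and of smallest separation between homozygous states, SNPs with absolute d over 1 in 4 or more zygotes, and up to 5 SNPs of absolute d under 1 inside tracts. Members, rules and lists were chosen with earlier results of these data known. Alternatives on the probe strand used the letters F and R of the probe names. The number of arrays limits precision. Tract calling and the limma step were tested on simulated data. The limma simulation recovered 100 of 100 planted SNPs at each of its shifts, with 9 false calls. It shifted HK10 alone and gave HK12 A and B no difference in state, unlike the data right of the HK12 B change.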

Additional observations from a re-analysis of the deposited data

Results flagged for a closer look

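Besides its SNPs, the stretch holds 7 positions with probes of 1 allele only, which enter no comparison above. At the 2 Y-only positions right of the HK12 B state change, the mean log2 level minus the zygotes was 0.496 in HK10 A and 0.526 in HK10 B. The highest zygote mean was 0.355. Single positions overlapped: MD893-2 zygote 1 reached 0.492, above the lower position of HK10 A (0.396) and of HK10 B (0.458). The mean was -0.27 in HK12 A and -2.59 in HK12 B, and the lowest zygote mean was -0.26. Left of the change, where HK10 was Y homozygous as well, the Y-only positions did not show this: HK10 A had -0.475 at the 1 position measured and HK10 B -0.21 and 0.50 at 2. With so few positions these values carry no test.

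HK10 and HK12 differed at 730 of the 733 SNPs tested, all lower in HK10 (limma, Benjamini-Hochberg adjusted p under 0.05), where 15.7% of all SNPs were called and 14.1% were lower. The median of HK10 minus HK12 was -3.29 left of the HK12 B state change, where 122 of 122 SNPs were called, and -4.93 right of it, where 608 of 611 were. Right of the change the HK12 mean joins heterozygous HK12 A and S-homozygous HK12 B, so the difference there describes neither isolate. In 6 measures of the stretch, no value of the 4 MD893-1 zygotes stood apart from the other 3 by Dixon's test (95% level, highest ratio of gap to range 0.689).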

How the results depend on the processing

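No result changed direction under any setting tried. For total signal (HK isolates minus zygotes), heterozygous SNPs alone gave -0.22 (exact p = 0.0714) and 1 value per HK name -0.34 (exact p = 0.0714), both the smallest p for 2 against 6. The mean of log2 ratios falls in LOH by construction, since the lost allele reads low, so its values are no support for lower total signal. It gave -0.91 (exact p = 0.00952) and a slope of -0.0421 (exact p = 0.229). Leaving out each isolate gave -0.39 to -0.31. Right minus left, the mean of log2 ratios gave -0.60 (exact p = 0.0571), heterozygous SNPs -0.0224 (exact p = 0.143), 1 value per name -0.12 (exact p = 0.0714), and leaving out isolates -0.16 to -0.10. The LOH difference was 60.9 to 94.2 percentage points over left-out isolates. The slope was -0.0131 to -0.000535 over left-out isolates, none past 0.05. SNPs called in HK10 minus zygotes were 450 of 495 tested with reverse-strand probes, 458 of 468 with all probes measured, and 412 to 740 over left-out isolates, 412 of 736 being without HK10 A. In HK12 minus zygotes the count of 1 became 0 with forward-strand probes, reverse-strand probes or all probes measured. It was 0 to 611 over left-out isolates, 611 of 735 being without HK12 A. Same-numbered zygotes of the crosses had correlations of -0.22 and -0.219 in their deviations of d from the cross means (11939 SNPs). The deviations of the 2 MD893-2 zygotes mirror each other, so these values cannot tell whether the numbers pair the samples. The replicate block by zygote number, on zygotes 1 and 2 of each cross, called 2 of 765 SNPs (760642 with 1.36 and 762481 with -1.73; limma). The same arrays without the block, a fit added after seeing the data, called 0 of 765. Neither SNP was among the 733 measured on all 10 arrays, and no share over all SNPs was taken for these fits. The block left the difference in total signal at -0.02 (exact p = 0.5), and left-out zygotes gave -0.0168 to -0.0151 in signal, 0 in LOH and 0 called SNPs. Fewer arrays or fewer tested SNPs are part of the construction of these settings, and the other causes were not tested. Few arrays limit all tests, events under 5 SNPs are not called, and signal from the lost allele keeps LOH levels from being read as copy number.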
